A study of Capra hircus with 3 samples.

Results

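KRT5, KRT14, KRT15, KRT17 and KRT75 are keratin genes of the basal layer of the epidermis and of the sheaths of the hair follicle and are described here as a group taken by name. They are 5 of the 16739 genes measured, which include 31 other keratin genes. Keratins are the intermediate filament proteins of epithelial cells, and a filament forms only when a type I keratin pairs with a type II keratin. KRT5 (type II) pairs with KRT14 (type I) in basal keratinocytes and the outer root sheath, and KRT15 is a further type I keratin of basal cells that is well known from the follicle bulge. KRT17 (type I) belongs to follicle and other appendage epithelium and appears in stressed epidermis, whereas KRT75 (type II) is known from the companion layer between the outer and inner root sheaths.

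The samples were back skin of Northern Shaanxi White Cashmere Goat fetuses (Capra hircus) at embryonic days 60, 90 and 120 (E60, E90 and E120). The design text assigns the stages, in that order, to induction, organogenesis and cytodifferentiation of the follicle. A stage was 1 library of 10x Genomics 3′ transcript ends, in which cells of at least 2 fetuses had been mixed before barcoding. No genotype or treatment set the groups apart, but the tissue preparation did: E60 and E90 were whole skin digested with collagenase IV and pipetted, and E120 was follicles picked from digested skin and dissociated further with TypLE Express. Stage, fetus and preparation therefore cannot be told apart wherever E120 is compared, and stage and fetus cannot be told apart anywhere. With 1 library per stage no test was possible, and the values below carry exact 95% intervals that cover counting error only.

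The tables held 20676 cell barcodes, where the design text gives 19705 cells with no stated filter. E60 held 6849 cells, E90 6931 and E120 6896, with medians of 8579, 3714 and 13064 unique molecular identifiers (UMIs, counted transcripts) per cell. The libraries shared 9 to 13 cell barcodes in each pair. E90 stood apart by its shallow depth and by a median mitochondrial share of 11.1%, against 4.52% at E60 and 5.26% at E120. Clustering without the 5 keratins, and naming clusters by markers that do not include them, put 3 cells of E60, 2327 of E90 and 5934 of E120 in an epithelial-like class.

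At E60 the keratins were almost absent. KRT14 and KRT75 had 0 UMIs among 65049552, where a floor of 3 counts is 0.0461 counts in each 1000000 UMIs (CPM). KRT5 had 17 UMIs (0.261 CPM, 0.152 to 0.418), KRT15 had 32 (0.492 CPM, 0.336 to 0.694) and KRT17 had 171 (2.63 CPM, 2.25 to 3.05). These counts lay in few cells. Any of the 5 keratins was found in 20 of 6849 cells, and 2 or more of them in 5 cells. The 3 epithelial-like cells of E60 held 15 of the 17 KRT5 UMIs, 25 of the 32 KRT15 UMIs and 144 of the 171 KRT17 UMIs, and still no KRT14. Those 3 cells had 44459 UMIs in all, which puts KRT5 at 337 CPM (189 to 556), KRT15 at 562 CPM (364 to 830.1) and KRT17 at 3239 CPM (2732 to 3813) in them, and KRT14 under a floor of 67.5 CPM. With so few cells these levels are a description only.

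At E90 the basal keratins were present at high levels in the library. The folds below compare whole libraries, with 3 epithelial-like cells at E60 and 2327 at E90. Within that class KRT5 was at 337 CPM at E60 and 550 CPM at E90, and KRT17 at 3239 and 5222 CPM. KRT14 was at 0 and 1164 CPM, whereas KRT15 was higher at E60, at 562 and 255 CPM. With 3 cells at E60 this is a description only. KRT5, the type II partner, reached 347 CPM (340 to 353), 1326-fold its E60 level (828 to 2277). KRT14, its type I partner, reached 759 CPM (749 to 769), at least 16456-fold higher than a floor of 3 counts at E60. KRT15 reached 182 CPM (178 to 187), 371-fold higher (262 to 542). KRT17, the appendage keratin, reached 3332 CPM (3312 to 3353), 1268-fold higher (1091 to 1482). KRT75 of the companion layer had 13 UMIs in 13 cells (0.429 CPM, 0.229 to 0.734). On the scale of log2(CPM + 1), 4 of the 5 keratins were higher at E90 than at E60 by 2 or more, and KRT75 was under 10 CPM in both. Among the 6278 genes with at least 10 CPM in either library, 7.23% were that much higher and 2.33% that much lower.

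At E120 KRT5, KRT15 and KRT17 were lower than at E90, KRT14 was little lower and KRT75 was higher. KRT5 was at 53.6 CPM (52.1 to 55.1), KRT15 at 40.1 CPM (38.8 to 41.4) and KRT17 at 588 CPM (583 to 593), which is 6.47-fold (6.25 to 6.69), 4.55-fold (4.36 to 4.74) and 5.67-fold (5.61 to 5.73) below E90. KRT14 was at 551 CPM (547 to 556), 1.38-fold below E90 (1.36 to 1.40). KRT75 was at 15.5 CPM (14.7 to 16.3), 36.1-fold above E90 (21.0 to 68.0). Against E90, 3 of the 5 were thus lower by a log2 ratio of 2 or more, with 10.4% of 6357 genes lower by as much, and 1 was higher by as much, with 2.67% of genes higher. KRT14 was lower by 0.46 on the log2 scale, against a median of -0.24 over all genes, and when libraries were scaled by the median ratio of all genes its log2 ratio became 0.02. The count of 3 depends on the scale: KRT15 was lower by 1.69 under that scaling and by 1.63 with each cell weighted equally, KRT17 was lower by 1.84 with equal weights, and KRT75 was higher by 1.29 with a pseudocount of 10 CPM. Against E60, all 5 keratins were higher by 2 or more, as were 8.12% of 5982 genes, while 11.7% were lower. The 3 stage comparisons share libraries and are not independent of each other.

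**Figure D1:**
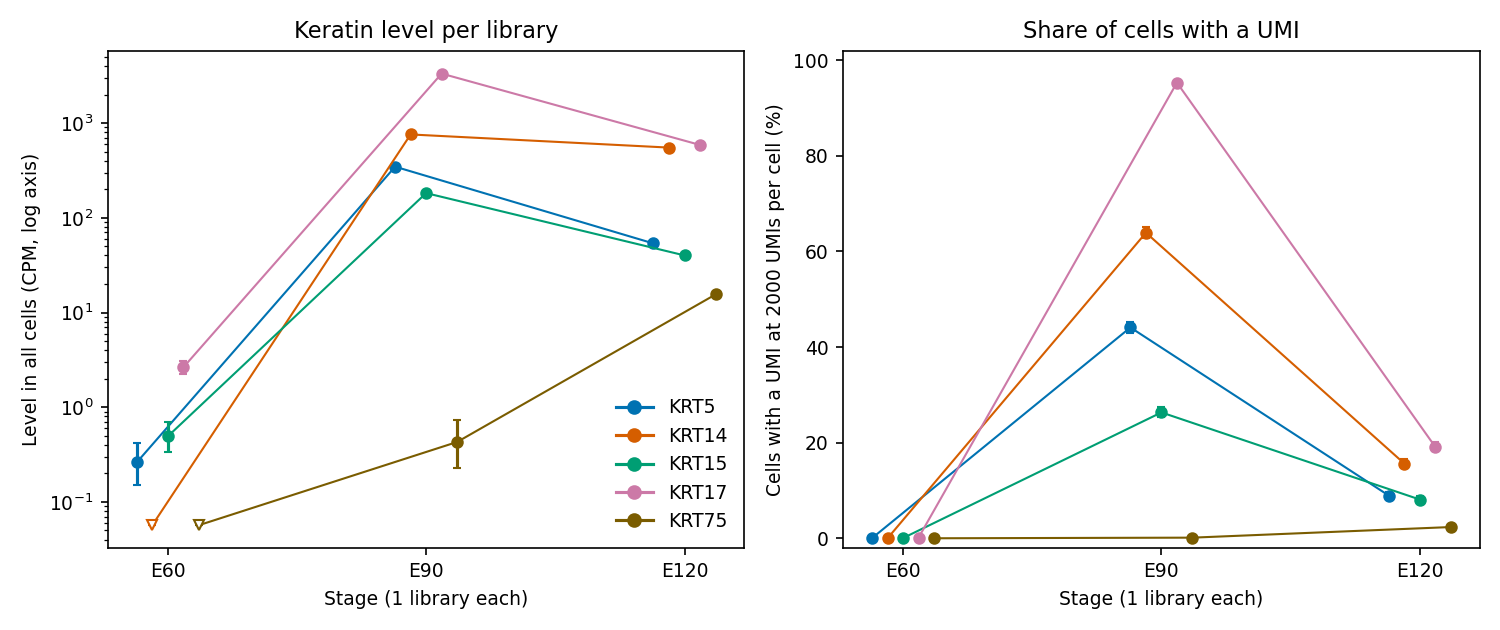
Level of each keratin in the whole library (left, CPM on a log axis) and share of cells with at least 1 UMI after thinning each cell to 2000 UMIs (right, percent), by embryonic stage with 1 library each; bars are exact 95% intervals of counting error, and open triangles mark the upper limit where no UMI was counted. KRT5, KRT15 and KRT17 peak at E90, KRT14 is close to its E90 level at E120, and KRT75 is highest at E120.

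The basal keratins and KRT17 were found in many cells at E90 and in fewer at E120. After drawing 2000 UMIs at random from every cell (none was shallower), KRT17 was found in 95.3% of E90 cells (94.8 to 95.8) and in 19.1% of E120 cells (18.2 to 20.1). Unthinned, the shares were 99.2% and 39.7%. KRT14 was found in 63.9% of thinned cells at E90 and 15.6% at E120, KRT5 in 44.1% and 8.93%, KRT15 in 26.3% and 8.11%, and KRT75 in 0.130% and 2.35%. Unthinned, the shares were 82.2% and 31.8% for KRT14, 64.1% and 22.8% for KRT5, 43.4% and 21.7% for KRT15, and 0.188% and 7.15% for KRT75. The cells with the most UMIs of a gene carried more of it at E120: the top 10% of cells held 43.9% of KRT14 UMIs at E90 and 95.6% at E120, and 38.3% and 93.0% of KRT17 UMIs.

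A keratin UMI at E90 was not a mark of an epithelial cell. KRT17 was found in 66.3% of thinned dermal-like cells (62.1 to 70.4, median depth 5781 UMIs) and in 90.3% of thinned cells of the endothelial-like cluster (81.0 to 96.0, median depth 3499.5 UMIs), types that should lack it. KRT14 was found in 22.9% and 36.1% of them, KRT5 in 13.1% and 27.8%, and KRT15 in 7.63% and 19.4%. At E120 the corresponding shares in the endothelial-like cluster, at a median depth of 6347 UMIs, were 7.27% for KRT17, 4.65% for KRT14, 0.872% for KRT5 and 0.581% for KRT15. The 17 non-keratin epithelial markers were also found there: at E90 they summed to 495 CPM in the endothelial-like cluster, where 4 of them were in at least 10% of cells and PKP1, TRIM29 and LAMB3 were at 0, and to 193 CPM in the dermal-like one, with 3 of them in at least 10% of cells and none at 0. In the epithelial-like clusters of E90 they summed to 1954 and 969 CPM, and in the endothelial-like cluster of E120 to 165 CPM. Shares in the endothelial-like and dermal-like cells are taken as the background level of each library, and the part of free RNA in the E90 levels was not tested.

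Levels at E90 still differed between clusters by more than counting error. The highest level of KRT5, KRT15 and KRT17 was in a cluster of 951 cells led by KRT10, SERPINA12 and LYPD2, at 711 CPM (686 to 736), 309 CPM (292 to 325) and 6617 CPM (6542 to 6693). The other epithelial-like cluster, 1374 cells led by CXCL10, CCL20 and AK8 with SEMA3E and LHX2 of the follicle bud and sheath list, had 437, 217 and 4246 CPM. KRT14 was nearly level between them, at 1204 and 1137 CPM, a ratio of 1.06 (1.02 to 1.10). The dermal-like cluster was lowest for all 4, with 72.7 CPM of KRT5, 135 of KRT14, 39.1 of KRT15 and 590 of KRT17. The cluster led by KRT10 was thus above it by 9.78-fold (8.55 to 11.2), 8.93-fold (8.09 to 9.89), 7.90-fold (6.56 to 9.59) and 11.2-fold (10.7 to 11.8). Against the endothelial-like cluster the same folds were 5.44 for KRT5 (3.93 to 7.73), 4.06 for KRT14 (3.27 to 5.09), 3.23 for KRT15 (2.21 to 4.93) and 4.89 for KRT17 (4.42 to 5.42).

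A further 3 E90 clusters could not be named: 1782 cells led by mitochondrial genes, 1727 cells led by ND6 and ACTA2, and 462 cells led by haemoglobin genes. KRT17 was at 2932, 2304 and 2866 CPM in them, KRT14 at 669, 536 and 757 CPM, KRT5 at 240.2, 295 and 300.4 CPM and KRT15 at 152, 151 and 268 CPM. These levels lay between those of the epithelial-like and the other named clusters, except KRT15 in the haemoglobin cluster, which was above the 217 CPM of the CXCL10 cluster. For KRT5 the second and the last, for KRT15 the first and the second and for KRT17 the first and the last had overlapping intervals. Together with the other cells left unnamed, they held 41.8% of the KRT17 UMIs and 57.8% of the cells of E90. Their median mitochondrial shares were 16.8%, 10.7% and 11.7%, against 8.28% and 10.4% in the epithelial-like clusters. The 17 epithelial markers summed to 531, 765 and 728 CPM in them, with 6 in at least 10% of the cells of each and none at 0. These sums lay between the 495 CPM of the endothelial-like cluster and the 969 CPM of the CXCL10 cluster. Whether the 3 clusters hold epithelial cells was not tested.

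**Figure D2:**
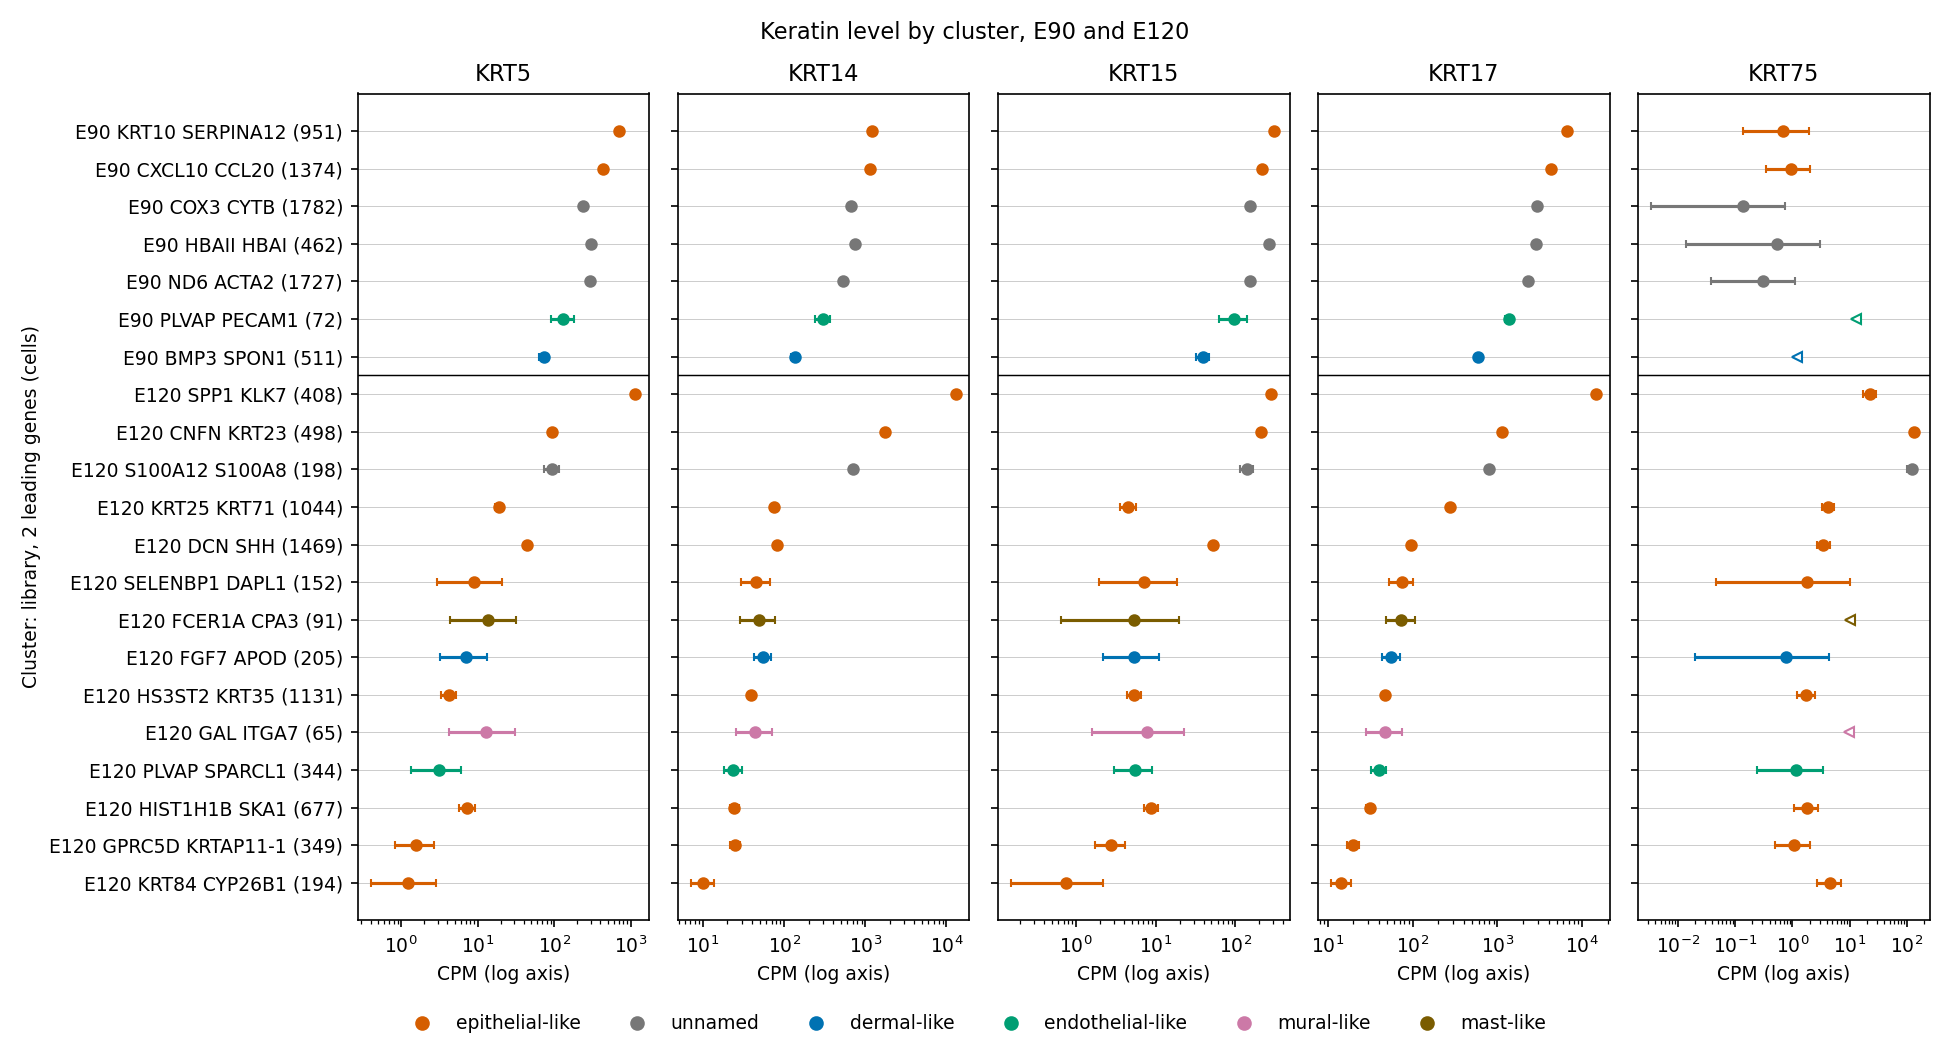
CPM of each keratin (log axes, 1 panel per gene) in every E90 and E120 cluster with at least 50 cells of the library, labelled by its 2 leading genes and cell number and coloured by class; bars are exact 95% intervals of counting error, and open triangles are upper limits at 0 UMIs. At E90 all clusters carry KRT5, KRT14, KRT15 and KRT17, whereas at E120 the SPP1 and KLK7, CNFN and KRT23, and S100A12 clusters stand above the rest.

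At E120, KRT5, KRT14 and KRT17 were concentrated in a cluster of 408 cells led by SPP1, KLK7 and BARX2. It held 5.92% of the cells and 63.7% of the KRT14 UMIs, 66.5% of the KRT17 UMIs and 56.8% of the KRT5 UMIs. KRT14 stood at 13017 CPM there (12877 to 13159), KRT17 at 14502 CPM (14353 to 14651) and KRT5 at 1128 CPM (1087 to 1171), so the 5 keratins made up 2.89% of all its UMIs. Its cells were shallow, with a median of 4545 UMIs, and varied widely: the median cell had 3387 CPM of KRT14 and the upper 10% of cells had at least 28468 CPM.

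The genes that lead this cluster came from more than 1 layer. Among its 10 leading genes were SOX9 and BARX2 of the outer root sheath and bud list, KRT10 and KLK10 of the suprabasal list, and POSTN, which is on both the basal and the dermal lists. SOX9, a transcription factor of outer root sheath and bulge cells, was at 966 CPM, against 2.42 to 11.4 CPM in the 3 clusters led by CNFN, DCN and KRT25. COL17A1, the hemidesmosomal collagen of cells on the basement membrane, was at 80.2 CPM, and KRT10 and KRT1, the pair of suprabasal epidermis, at 621 and 542 CPM. The cluster therefore matched the basal or sheath label in part and carried suprabasal keratins as well.

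For KRT14, KRT5 and KRT17 the endothelial-like cells of E120 were the lowest of the named non-epithelial cells, so folds against them are the largest. Papilla-like cells had 54.9 CPM of KRT14, and mast-like cells had 13.6 CPM of KRT5 and 73.2 CPM of KRT17. Against the endothelial-like cluster of E120, KRT14 was 550-fold higher in the SPP1, KLK7 and BARX2 cluster (428 to 720), KRT5 364-fold (184 to 843), KRT17 363-fold (299 to 445) and KRT15 51.4-fold (30.4 to 94.5). Set beside the E90 cluster led by KRT10, KRT14 was 10.8-fold higher in it (10.5 to 11.1), KRT17 2.19-fold (2.16 to 2.23) and KRT5 1.59-fold (1.51 to 1.67), and KRT15 was 0.905 times as high (0.825 to 0.991). The lower library totals of KRT5 and KRT17 at E120 thus went together with a higher level in the cluster where each was highest.

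KRT75 and KRT15 had their main seat elsewhere. A cluster of 498 cells led by CNFN, KRT23 and MMP1 held 73.6% of the KRT75 UMIs and 43.9% of the KRT15 UMIs of E120 in 7.22% of its cells. KRT75 was at 136 CPM there (128 to 144), KRT15 at 209 CPM (199 to 220), KRT14 at 1731 CPM (1702 to 1760), KRT17 at 1134 CPM (1111 to 1158) and KRT5 at 94.8 CPM (88.1 to 101.9). KRT75 was found in 52.8% of its cells unthinned, and in 14.9% when thinned, against 0.872% and 0.581% in the endothelial-like cluster. S100A8 and S100A12, genes of stressed epithelium and of phagocytes, and KRT19 were also among its leading genes. KRT79 and KRT16, which were listed as companion layer markers, were at 1.66 and 0.255 CPM in it. KRT79 was higher, at 36.5 CPM, in the SPP1, KLK7 and BARX2 cluster, whereas KRT16 was at most 1.99 CPM in any cluster and tells little. KRT6A of the same list was not among the genes measured, and values of its members CTSB, SPINK6 and FAM26D are not given here. The markers given do not settle the name, and companion layer is not used for the CNFN, KRT23 and MMP1 cluster.

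The SPP1, KLK7 and BARX2 cluster exceeded the CNFN, KRT23 and MMP1 cluster by 12.8-fold for KRT17 (12.5 to 13.1), 11.9-fold for KRT5 (10.98 to 12.9) and 7.52-fold for KRT14 (7.37 to 7.67). For KRT15 the ratio was only 1.33 (1.22 to 1.46), and KRT75 was lower in it, at 22.2 CPM (16.8 to 28.9). An unnamed cluster of 198 cells led by S100A12, S100A8 and KRT23 had 122 CPM of KRT75 (99.5 to 147) and 93.8 CPM of KRT5 (74.5 to 117), intervals that hold the values of the CNFN cluster, but less KRT14 (702 CPM, 647 to 760.3) and KRT17 (798 CPM, 739.7 to 860.1). Its median depth was 3579.5 UMIs and its median mitochondrial share 0.510%, the lowest of all clusters of E90 and E120.

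Outside these 3 clusters the keratins of E120 were lower. The 1469 cells led by SHH, a follicle bud marker, and by DCN, a gene best known from dermal cells, had KRT5 in 8.92% of thinned cells (7.51 to 10.5) and KRT15 in 10.7% (9.15 to 12.4), above the endothelial-like 0.872% (0.180 to 2.53) and 0.581% (0.0705 to 2.08). In mast-like cells (91 cells, median depth 3618 UMIs) KRT5 was in 2.20% (0.267 to 7.71) and KRT15 in 2.20%, and in mural-like cells (65 cells, median depth 5357 UMIs) KRT5 was in 4.62% (0.962 to 12.9), whose interval reaches the share in the DCN and SHH cluster, and KRT15 in 0%. The 1044 cells led by KRT25 and KRT71, keratins of the inner root sheath, had KRT17 in 14.7% (12.6 to 16.9) and KRT5 in 4.31% (3.16 to 5.73). Those shares were above the endothelial-like 7.27% (4.76 to 10.5) and 0.872%, but KRT17 was in 14.3% of mast-like cells (7.83 to 23.2), so by share neither stood apart from all non-epithelial cells. The level of KRT17 stood apart in part of this cluster. In the finer clustering given below, groups led by FGF2 and GATA3 and by KRT27 and KRT71 had 364 CPM (351 to 376) and 185 CPM (176 to 194). Their thinned shares were 21.5% and 6.34%, and the upper 10% of their cells had at least 614 and 91.3 CPM. In the KRT27 and KRT71 group 1 cell held 630 of the 1713 KRT17 UMIs. Mast-like cells, the highest of the named non-epithelial cells, had 73.2 CPM (48.2 to 106), and their upper 10% had at least 288 CPM. Only the FGF2 and GATA3 group was thus above mast-like cells in both the summed level and the upper 10% of cells.

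KRT14 in the clusters led by HS3ST2 and KRT35, HIST1H1B, GPRC5D and KRT84, of hair shaft and cycling cells, was found in 2.58% to 5.44% of thinned cells, next to 4.65% of endothelial-like cells (2.68 to 7.44). Its level in the HS3ST2 and KRT35 cluster, 39.2 CPM (36.4 to 42.2), was above the 23.7 CPM of endothelial-like cells (18.1 to 30.4) and below the 54.9 CPM of papilla-like cells (42.9 to 69.3). The 152 cells led by SELENBP1 and DAPL1, at a median depth of 3203 UMIs, had KRT14 in 9.87% of thinned cells (5.63 to 15.8) and at 45.1 CPM (29.2 to 66.5). In none of these clusters did KRT14 exceed the levels of all the non-epithelial clusters.

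**Figure D3:**
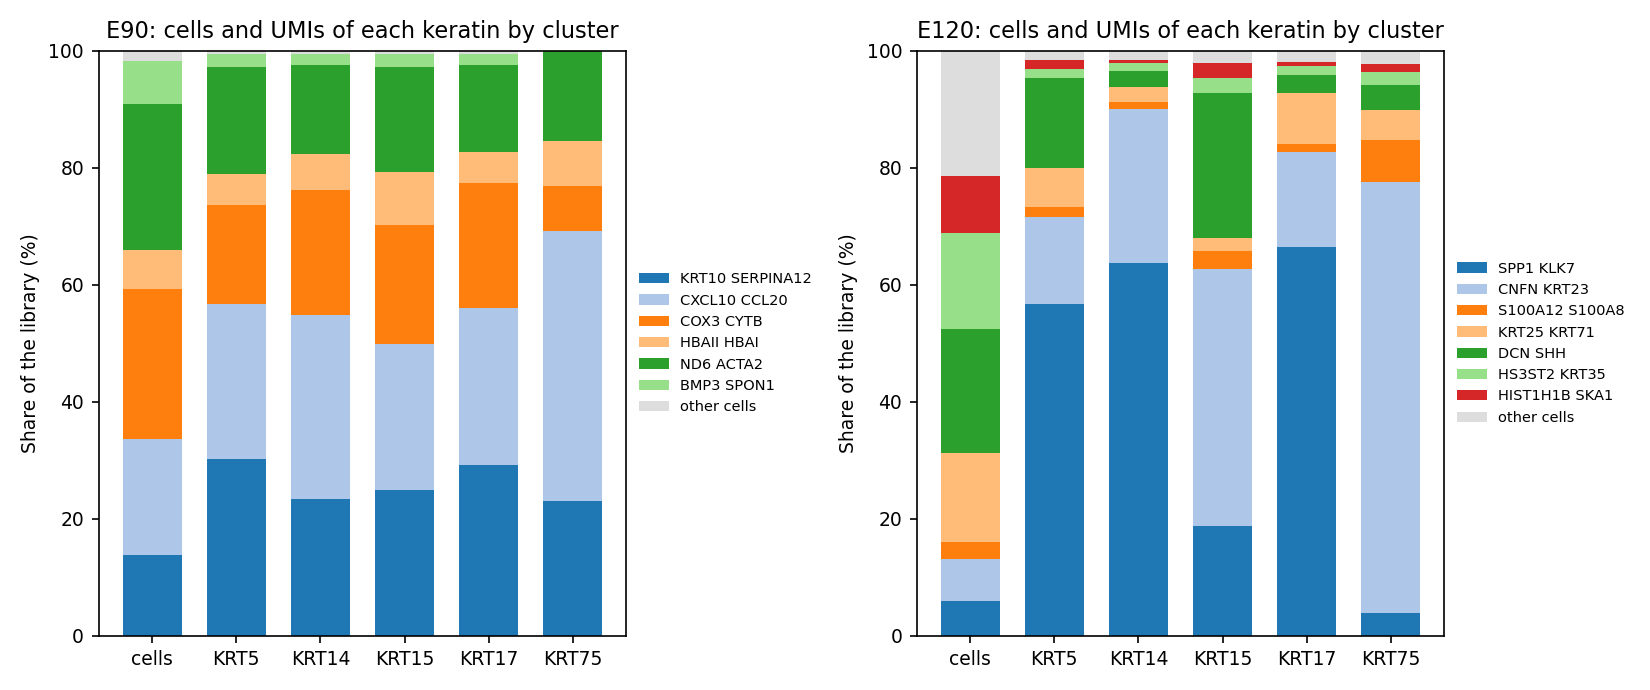
Share of cells (first bar) and of the UMIs of each keratin (other bars) held by each cluster, in percent of the library, at E90 (left) and E120 (right). At E90 no cluster holds more than 31.4% of the UMIs of KRT5, KRT14, KRT15 or KRT17, and at E120 the SPP1 and KLK7 cluster holds 5.92% of cells and 63.7% of KRT14 UMIs while the CNFN and KRT23 cluster holds 73.6% of KRT75 UMIs.

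The balance of KRT14 and KRT5, a filament pair, differed between the stages and between E120 clusters. The ratio of their UMIs is given to compare cells, not as a ratio of molecules. At E90 there were 2.19 KRT14 UMIs per KRT5 UMI in the whole library (2.14 to 2.24), from 1.69 in the KRT10 cluster (1.62 to 1.77) to 2.78 in the mitochondrial one (2.64 to 2.94). The dermal-like cells, at 1.85 (1.57 to 2.19), and the endothelial-like cluster, at 2.27 (1.52 to 3.44), fell within that range. At E120 the ratio was 10.3 in the whole library (9.99 to 10.6) and 11.5 in the SPP1, KLK7 and BARX2 cluster (11.1 to 11.99). It was 18.3 in the CNFN cluster (16.96 to 19.7) and 1.88 in the DCN and SHH cluster (1.72 to 2.05). On 5 to 9 KRT5 UMIs each, it was 7.625 in the endothelial-like cluster (3.64 to 18.5) and 7.89 in papilla-like cells (3.93 to 18.0). Mast-like cells had 3.60 (1.29 to 12.4) and mural-like cells 3.40 (1.20 to 11.8). All these intervals hold 11.5, so the ratio of the SPP1, KLK7 and BARX2 cluster was not set apart from the non-epithelial cells.

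KRT17 against KRT14 moved the other way. There were 3.73 to 5.50 KRT17 UMIs per KRT14 UMI in the E90 clusters, with 4.38 in dermal-like cells. At E120 the ratio was 1.11 in the SPP1, KLK7 and BARX2 cluster (1.10 to 1.13) and 0.655 in the CNFN cluster (0.638 to 0.673). The KRT25 and KRT71 cluster, at 3.70 (3.48 to 3.93), was the E120 cluster nearest to the E90 values, but it pools unlike groups. In the finer clustering below, its group led by FGF2 and GATA3 was at 9.24 (8.26 to 10.4). The group led by KRT27 and KRT71 was at 1.75 (1.62 to 1.90), and 1 cell held 762 of its 977 KRT14 UMIs. KRT14, KRT16 and KRT17 resemble each other in sequence, as do KRT5, KRT6A and KRT75, and how reads shared by such copies were counted is not given in the sources used here.

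**Figure D4:**
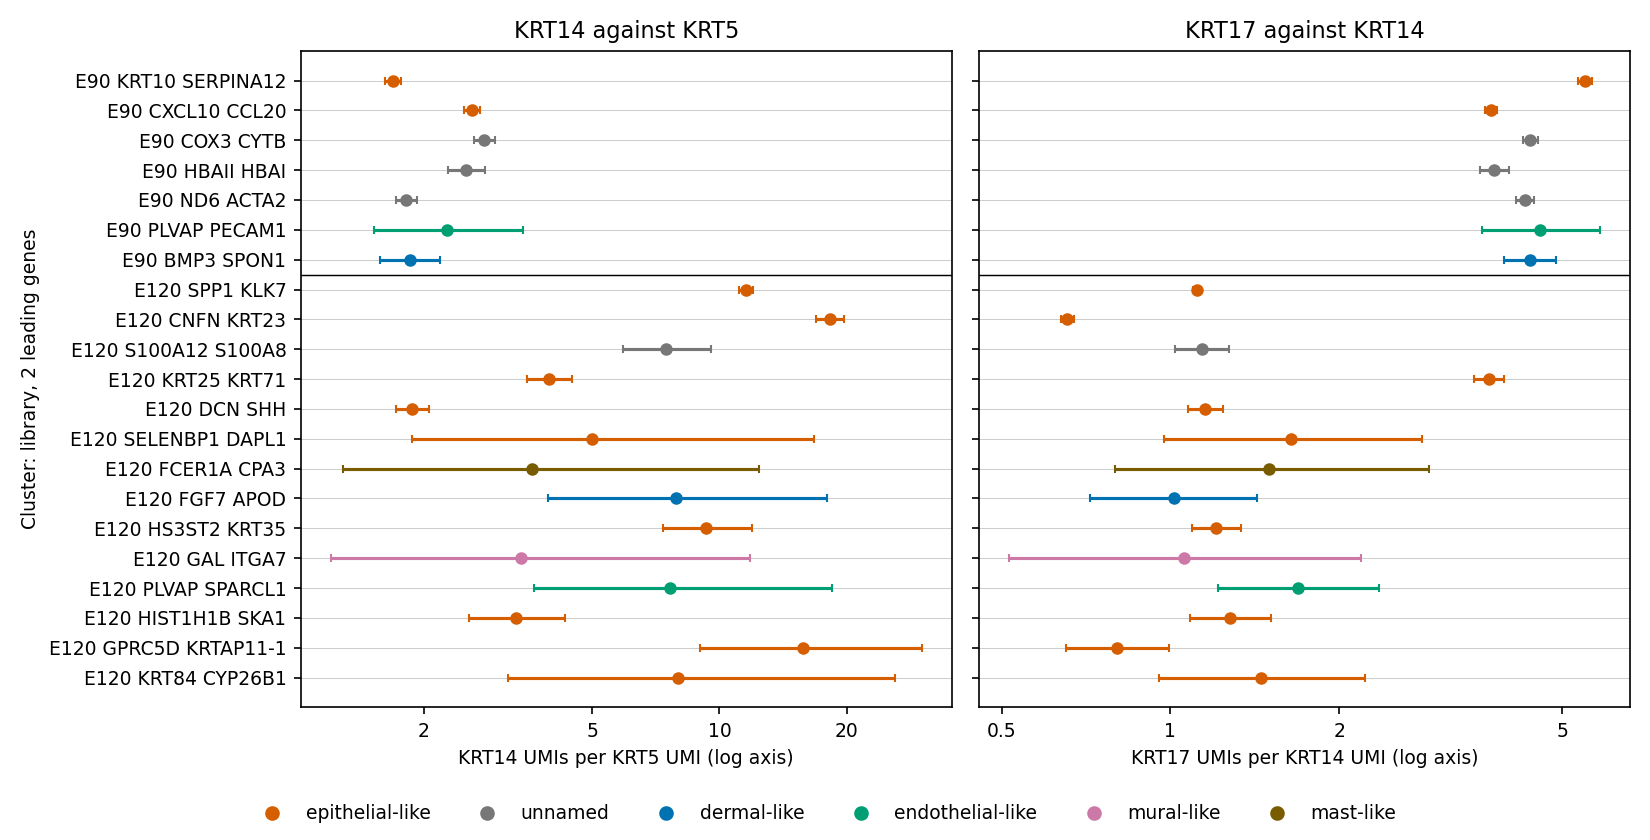
KRT14 UMIs per KRT5 UMI (left) and KRT17 UMIs per KRT14 UMI (right), on log axes, in each E90 and E120 cluster, coloured by class, with exact 95% intervals of counting error. The E90 clusters lie close together on both axes, and at E120 the SPP1 and CNFN clusters reach 11.5 and 18.3 on the left. The named non-epithelial clusters of E120 have wide intervals there, which hold 11.5.

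In the epithelial-like class as a whole, KRT5 went from 550 CPM at E90 (536 to 564) to 56.0 CPM at E120 (54.4 to 57.6), a 9.83-fold difference (9.46 to 10.2). KRT17 went from 5222 to 617 CPM, 8.46-fold lower (8.36 to 8.56), and KRT15 from 255 to 41.1 CPM, 6.20-fold lower (5.90 to 6.52). KRT14 went from 1164 to 580 CPM, 2.01-fold lower (1.97 to 2.05), and KRT75 from 0.832 to 15.3 CPM, 18.4-fold higher (9.64 to 40.2). By the log2 ratio of 2, 3 of 5 were lower, against 11.4% of 6285 genes, and 1 was higher, against 2.31% of genes. The class was made of different cells at the 2 stages: the KRT10 and CXCL10 clusters at E90, and mostly clusters of the inner root sheath, shaft, DCN and SHH and cycling cells at E120. When each cell was given a class by its own marker counts in place of its cluster, 1114 cells of E90 and 1127 of E120 were compared and KRT14 was higher at E120, by 0.52 on the log2 scale. With those cells KRT5, KRT15 and KRT17 were lower by 1.90, 1.74 and 1.32, so that none of the 3 reached 2. The rule by own markers left out all keratins and compared another mix of cells. It also called 165 cells of E60 epithelial, against 3 by cluster.

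Genes that work beside these keratins differed between E90 and E120 epithelial-like cells as follows, by the same log2 ratio of 2. Of 6 hemidesmosome and basement membrane genes with at least 10 CPM, which anchor basal keratins to the matrix, 5 were lower at E120 and none was higher, with a median log2 ratio of -2.75 against -0.32 for all genes, of which 11.4% were lower and 2.31% higher. COL17A1 went from 74.0 to 9.49 CPM and DST, the plakin that links keratins to hemidesmosomes, from 339 to 34.5 CPM. Of 12 desmosome genes, which link keratins between cells, none was lower and 1 was higher, DSG4 of the hair shaft, from 0 to 18.5 CPM. DSP, the plakin of desmosomes, was at 729 and 496 CPM.

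Among 13 transcription factors known from basal and follicle epithelium, 5 were lower and none higher, with a median log2 ratio of -1.29, where 11.4% of all genes were lower, 2.31% higher and the median was -0.32. The 5 were SOX9 (489 to 33.6 CPM), TFAP2B (329 to 36.9 CPM), TCF7L2 (150 to 21.6 CPM), KLF5 (359 to 86.0 CPM) and TCF7L1 (26.0 to 1.46 CPM). TP63, the master factor of stratified epithelium, was at 17.2 and 8.11 CPM. In the SPP1, KLK7 and BARX2 cluster of E120, SOX9 (966 CPM) and DST (465 CPM) were above both E90 epithelial-like clusters, where SOX9 was at 439 and 559 CPM and DST at 397 and 256 CPM. COL17A1 (80.2 CPM) lay between them, at 88.4 and 53.6 CPM.

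Other keratin groups differed in both directions, beside the same 11.4% of all genes lower, 2.31% higher and median of -0.32. Of 4 suprabasal keratins, 3 were lower at E120 (median -4.12), with KRT1 at 3199 and 47.5 CPM and KRT10 at 1318 and 21.0 CPM. Of 3 simple keratins (median -2.29), KRT7 and KRT8 were lower, and KRT19, a type I keratin also known from the bulge, was higher (42.8 to 191 CPM) with its highest level, 1262 CPM, in the CNFN cluster that held most KRT75. All 5 inner root sheath keratins and all 5 shaft keratins with at least 10 CPM were higher (medians 8.29 and 7.50), among them KRT71 (0.278 to 4256 CPM) and KRT35 (6.38 to 6180 CPM). Of the wound or sheath keratins, KRT16 and KRT79 had under 10 CPM at both stages and entered no count.

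Over the whole epithelial-like class of E120, cells that had 1 of the keratins tended to have others. Of 5934 thinned epithelial-like cells, 10.5% had both KRT14 and KRT17 (9.75 to 11.3), where the product of the single shares is 3.03%, and 5.29% had both KRT5 and KRT14 (4.74 to 5.89), where the product is 1.51%. Spearman's rho over these cells was 0.59 for KRT14 and KRT17 and 0.39 for KRT5 and KRT14, as a description of cells that share a library. The class pools unlike groups. In the finer clustering below, the group led by SPP1 and KLK7 had KRT14 and KRT17 in 84.1% and 94.8% of thinned cells. The group led by HS3ST2 and KRT35 had them in 3.15% and 4.39%. Pooling such groups raises the share of pairs above the product, and its part in the excess was not tested. Among 2327 epithelial-like cells of E90, 42.2% had both KRT5 and KRT14 (40.2 to 44.3), next to a product of 41.5%. Within the CNFN cluster, 78.4% of the thinned cells with KRT75 also had KRT14 and 82.4% had KRT17, against 46.4% and 52.6% of all its cells, whereas 12.2% had KRT5, against 17.1%. This cluster too mixes unlike cells. In the finer clustering below, its part led by CNFN and SERPINB13 had KRT14, KRT17, KRT75 and KRT5 in 90.4%, 91.6%, 28.7% and 11.8% of thinned cells. The part led by ALDH1A3 had them in 22.0%, 31.1%, 7.45% and 19.9%.

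A finer clustering, at Leiden resolution 2, divided the keratin-rich cells further, and its groups overlap the clusters above without matching them cell for cell. The CNFN cluster gave 178 cells led by CNFN and SERPINB13, with KRT14 at 3805 CPM, KRT17 at 2304, KRT15 at 265, KRT75 at 259 and KRT5 at 51.4 CPM. Its other portion, in 322 cells led by ALDH1A3, S100A8 and KRT23, had KRT14 at 165 CPM, KRT17 at 253, KRT15 at 167, KRT75 at 43.4 and KRT5 at 126 CPM. KRT5 was therefore higher where the other 4 were lower, and the KRT14 UMIs per KRT5 UMI were 74.1 (63.8 to 86.5) and 1.31 (1.17 to 1.46).

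The SPP1, KLK7 and BARX2 cluster gave 270 cells led by SPP1, KLK7 and KRT10, with KRT14 at 15832 CPM, KRT17 at 16702, KRT5 at 1347 and KRT15 at 234 CPM. A further 136 cells, led by CCN2, SEMA3E and ATP1B1, had KRT14 at 2868 CPM, KRT17 at 6695, KRT5 at 345 and KRT15 at 460 CPM. KRT15 was thus the only one of these 4 that was higher in the smaller group. At E90 the CXCL10 cluster gave 130 cells led by TAC1 and SEMA3E, in which KRT15 was at 471 CPM, against 168 CPM in 1230 cells led by CXCL10 and CHGA. The KRT10 cluster of E90 gave 322 cells led by LYPD2 and KRT4 in which KRT14 was at 394 CPM and KRT5 at 548 CPM, a ratio of 0.718 (0.645 to 0.799), and 685 cells led by MMP7 and SPP1 with 1590.5 and 782 CPM, a ratio of 2.03 (1.94 to 2.14).

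**Figure D5:**
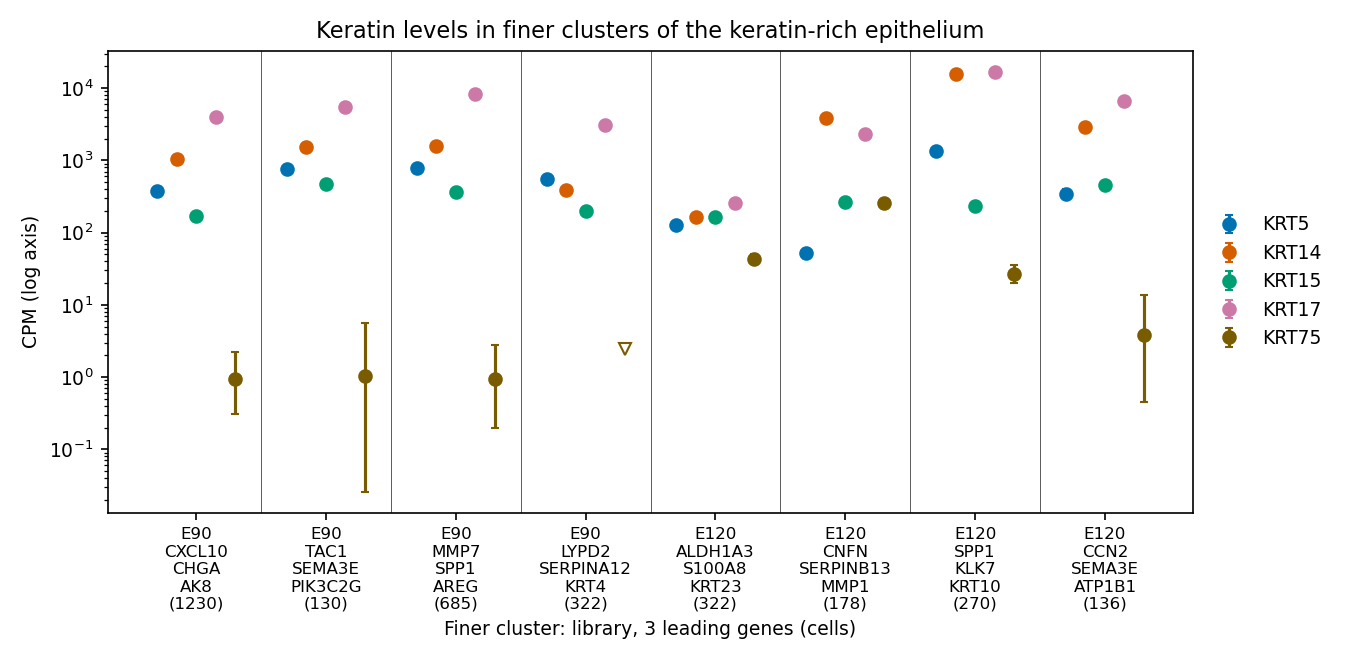
CPM (log axis) of each keratin in the finer clusters of the KRT10 and CXCL10 clusters of E90 and the SPP1 and CNFN clusters of E120. Labels give library, 3 leading genes and cell number. Bars are exact 95% intervals of counting error, many smaller than the points, and an open triangle is an upper limit at 0 UMIs. The E120 group led by FGF2 and GATA3, with KRT17 at 364 CPM, is not drawn. KRT14 spans 165 to 15832 CPM across them, and KRT75 exceeds 40 CPM only in the ALDH1A3 and CNFN groups.

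Across the 33 clusters of all libraries, the 3 genes most like each of KRT5, KRT14, KRT15 and KRT17 were the other 3 of these 4, among 6141 genes with a symbol and at least 20 CPM in 1 cluster. Pearson's r of log2(CPM + 1) was 0.954 to 0.981, as a description. The clusters share 3 libraries and the E60 clusters lie near 0, so part of r reflects the contrast between libraries. Over the 13 clusters of E120, KRT14 and KRT17 were again nearest to each other (r = 0.979), and the nearest to KRT15 was KRT19 (r = 0.960). Over the 7 clusters of E90 none of the 3 genes nearest to any of the keratins was one of the 3 found over all clusters, although r among KRT5, KRT14, KRT15 and KRT17 was still 0.944 to 0.987 there. The genes most like KRT75 over the 33 clusters were KRT23 (0.917), S100A12 (0.907) and KRT78 (0.900). The nearest genes other than the 5 keratins, chosen after seeing these results, were KRT8 for KRT5 and KRT17 (0.943 and 0.928), CSTA for KRT14 (0.913) and COL17A1 for KRT15 (0.930).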

How the data were processed

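The deposited values were natural log values, which the authors had computed as the natural log of 1 plus UMIs scaled to 10000 per cell, as the values themselves showed. Cell Ranger 3.0.2 is named in the submitters' processing notes. The genome build, annotation and filters are not given in the sources used here. Dividing back-transformed values by each cell's smallest gave whole numbers for 100% of values within 0.01, and these were used as UMI counts, assuming that the smallest value is 1 UMI. The plan had assumed counts.

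UMIs were summed per library, class or cluster and scaled to 1000000 (CPM). Ratios are log2 of CPM + 1, later over earlier. Intervals of sums are exact Poisson, of shares Clopper-Pearson, and of folds exact binomial, at 95%, and PCR or capture bias is not in them. Zeros take a floor of 3 counts.

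Cells were clustered on 2000 variable genes without the 5 keratins, with 30 principal components, 20 neighbours and Leiden resolution 1 (leidenalg 0.10.2, igraph 0.11.9, scipy 1.17.1, numpy 2.4.6, Python 3.11.15). A cluster was called epithelial-like with at least 3 of 17 markers in 10% of its cells, if it also met 1 of these conditions. Either a gene of the epithelial, epidermal, sheath, companion layer, matrix or shaft lists, other keratins included, was among its 10 leading genes. Or the 17 markers summed to at least 2 times their endothelial-like level. It stayed unnamed when at least 3 mitochondrial genes led it, when another type had as many leading markers, or when its depth was under 1/3 of the library's with no leading marker. This scoring was chosen with the data in view. No doublets were removed.

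The genes named were the 5 keratins, the 3 genes nearest to each across clusters with at least 50 cells, and members of the fixed lists with at least 50 CPM in a class named; those below it were named after their values were seen. The members and lists were chosen with earlier results of these data known. The scripts were tested on simulated data. No sequence table was used here.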

Additional observations from a re-analysis of the deposited data

How the results depend on the processing

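Of 95 recomputed stage ratios of the 5 keratins, 47 moved by less than counting error, 46 moved by more and 2 reversed; no cause was tested. KRT14 at E120 over E90 reversed under median-of-ratios scaling in all cells (0.015) and with classes from each cell's own markers in epithelial-like cells (0.52). Median-of-ratios scaling moved all genes by 0.47, -0.48 and -0.60, in the order E90 over E60, E120 over E90 and E120 over E90 in epithelial-like cells. No paired analysis was possible because each stage is 1 library.

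For E90 over E60, a pseudocount of 10 CPM gave 5.12 for KRT5, 6.26 for KRT14, 4.196 for KRT15, 8.05 for KRT17 and 0.061 for KRT75. Median-of-ratios scaling gave 9.10 for KRT14 and 9.37 for KRT17, the cell filter 9.72 for KRT14, and equal cell weights 10.13 for KRT17.

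For E120 over E90 in all cells, in the order KRT5, KRT15, KRT17, median-of-ratios scaling gave -2.20, -1.69 and -2.02, equal cell weights -2.09, -1.63 and -1.84, a pseudocount of 10 CPM -2.49, -1.94 and -2.48, and the cell filter (a minimum of 1000 genes, a mitochondrial maximum of 10%) -3.03, -2.46 and -2.65. KRT14 was -0.10 with equal weights, -0.64 under the filter and -0.41 after removing the top 6% by doublet score, which gave -2.47 for KRT17. KRT75 was 1.29 with a pseudocount of 10 CPM. The cell filter also changed which cells were compared, mostly at E90. There it left 2756 cells out of 6931, and 2148 of those left were epithelial-like, against 2327 without the filter. At E120 it left 5902 cells out of 6896, with 5188 epithelial-like against 5934. The E60 library kept 6801 cells out of 6849. Filtered ratios over all cells thus rest on a more epithelial-like E90 library.

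In epithelial-like cells, in the same order, median-of-ratios scaling gave -2.68, -2.01 and -2.48, equal cell weights -2.56, -1.94 and -2.28, a pseudocount of 10 CPM -3.09, -2.37 and -3.06, and own-marker classes -1.90, -1.74 and -1.32. KRT14 was -0.40 with median-of-ratios scaling, -0.52 with equal weights, -0.90 under the filter and -0.95 without high doublet scores. KRT17 was -2.91 under the filter, -3.06 without high doublet scores and -3.10 at Leiden resolution 0.5. KRT75 was 1.22 with a pseudocount of 10 CPM. Leiden resolution 2 and keratins kept for clustering moved no ratio beyond counting error. Without a filter on low values, 4.09% of genes were higher at E90 than at E60, and 5.48% lower and 1.27% higher at E120 than at E90. At E90 the depth, a median of 3714 UMIs, limits shares of cells: thinning to 1000 UMIs gave 26.8% for KRT5 in place of 44.1%.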
